A study of Mus musculus with 6 samples.

Results

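Heat shock proteins and their co-chaperones were followed in taste cells of the mouse tongue at 2 and 6 months of age. Members were chosen by gene symbol, as every gene whose symbol begins with Hspa, Hspb, Hsph, Hspd, Hspe, Hsp90 or Dnaj, or with Bag or Hsf and a digit. This gave 86 of the 23361 genes in the authors' table, and 71 of the 86 were expressed, which is taken here as a mean FPKM of 1 or more over both ages. FPKM is the authors' count of sequenced fragments scaled to transcript length and library size. Cells were loosened from the circumvallate and foliate (CV/Fol) papillae of C57BL/6 mice by enzymes injected under the tongue epithelium and were collected by suction. Poly(A) RNA was sequenced from 3 pools at 2 months and 3 pools at 6 months, each pool holding the cells of several mice, with fewer mice per pool at the older age. The sample labels give the ages as 2 and 6 months and were followed, although a line of the series description gives 3 and 6 months. Age was the only labelled difference between the groups. The table holds 1 FPKM value per gene and age for the 3 pools together, and none for single pools, so no spread between pools was computed and no test was run, the depth of the libraries is unknown, and each difference is a description.

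Heat shock proteins bind unfolded or partly folded proteins and help them to reach or regain their working form. HSP70 proteins hold and release their clients in a cycle driven by ATP, in which J proteins deliver the client and speed ATP hydrolysis, HSP110 and BAG proteins release the nucleotide, and HSP90 finishes the folding of clients such as kinases and steroid receptors. Heat shock factors switch on the inducible members after protein damage, while the unfolded protein response does so for members that work in the endoplasmic reticulum (ER) in cells that fold many secreted and membrane proteins, and taste cells, which are replaced throughout life from the surrounding epithelium, must fold the proteins of each new generation.

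The cells carried the markers of their label. All 14 taste cell markers were expressed, among them Gnat3, the G protein alpha subunit of taste transduction, with 84.7 FPKM at 2 months against 79.9 FPKM at 6 months. Of these markers 8 were higher and 6 lower at 6 months, none by 1.5-fold, and their summed level was 1082 FPKM at 2 months against 943.7 FPKM at 6 months, with Krt19 the most abundant at 308 and 262 FPKM. The lower sum lay in the keratins Krt8, Krt18 and Krt19, with 766 and 625 FPKM, and the other 11 markers, split off after the values were seen, summed to 315 and 319 FPKM. Genes of the surrounding epithelium were also present at high levels, led by the basal keratin Krt5 with 2180 FPKM at 2 months against 1962 FPKM at 6 months and by Krtdap of differentiating keratinocytes with 4894 and 4404 FPKM. In such bulk RNA, fewer cells of a type and less RNA per cell cannot be told apart.

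The chaperone genes were abundant at both ages, and a few of them supplied most of the level. The members together held 6493 FPKM at 2 months against 6178 FPKM at 6 months, or 0.933% and 0.927% of the FPKM summed over all genes. Hspa8, the constitutive HSP70 of the cytosol, Hspb1, a small heat shock protein abundant in epithelia, and Hsp90ab1, the constitutive HSP90 of the cytosol, supplied 54.6% of that sum at 2 months and 54.4% of it at 6 months. The 10 most abundant members supplied 74.4% and 72.5%. The median level of the 71 members was 23.7 FPKM at 2 months against 23.6 FPKM at 6 months, against 11.8 and 11.7 FPKM for all expressed genes. A level of at least 100 FPKM was reached by 10 members at 2 months and by the same genes and Hspa1b, hence 11, at 6 months.

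The other 15 members had a mean under 1 FPKM and are not counted as expressed. These were Hspa12a, Hspa12b, Hspb2, Hspb3, Hspb7, Hspb9, Dnajb7, Dnajb8, Dnajc5b, Dnajc5g, Dnajc22, Dnajc27, Hsf2bp, Hsf3 and Hsf5, several of them known from muscle, nerve or testis. The highest value among them was 0.968 FPKM, for Dnajc27 at 2 months. Dnajb8 was listed at 0 at both ages, and Dnajc5b, Dnajc5g and Hsf3 were listed at 0 at 6 months alone.

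Few members differed by much between the ages. Differences were taken as log2(FPKM + 1) at 6 months minus that at 2 months, and a difference of 1.5-fold is 0.58 on this scale. Hspa1a, a stress-inducible HSP70, was the 1 member of 71 that was higher by at least 1.5-fold, against 1.05% of all 12652 expressed genes. No member was lower by 1.5-fold, against 1.72% of all genes. At the smaller size of 0.32 on this scale, 4 members were higher, namely Hspa1a, Hsf4, Hspa1b and Dnajb4, which is 5.63% of the members against 2.95% of all genes. Lower by at least 0.32 were 3 members, Hsp90b1, Dnajb11 and Hspa5, which is 4.23% of the members against 4.23% of all genes. When the 6 month values were scaled to the upper quartile of the 2 month values, the split at 0.32 was 5 higher and 3 lower among the members, with Dnajb1 added, and 474 higher and 451 lower among all genes in place of 373 and 535. The median difference of the members was -0.01 as deposited and 0.03 after this scaling, and that of all genes was also -0.01 and 0.03. The median size of a difference, whatever its direction, was 0.09 for the members and 0.09 for all genes. The median, the median size and the share lower by 0.32 were thus near the background. The share higher by 0.32 rests on 4 genes, of which Hspa1a and Hspa1b are near-identical. With this pair summed as 1 gene, an alternative added after the values were seen, it was 3 of 70, or 4.29%, against 2.95% of all genes. After upper quartile scaling it was 4 of 70, or 5.71%, against 3.75% of all genes. With the pair summed, no member was higher by 1.5-fold. Of all expressed genes 53.7% were below 0 as deposited and 42.3% after upper quartile scaling, against 56.3% and 40.8% of the members, and counts below 0 in the groups that follow stand beside these shares. Counts past 1.5-fold or 0.32 in those groups stand beside the shares of all genes given above for these sizes.

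**Figure D1:**
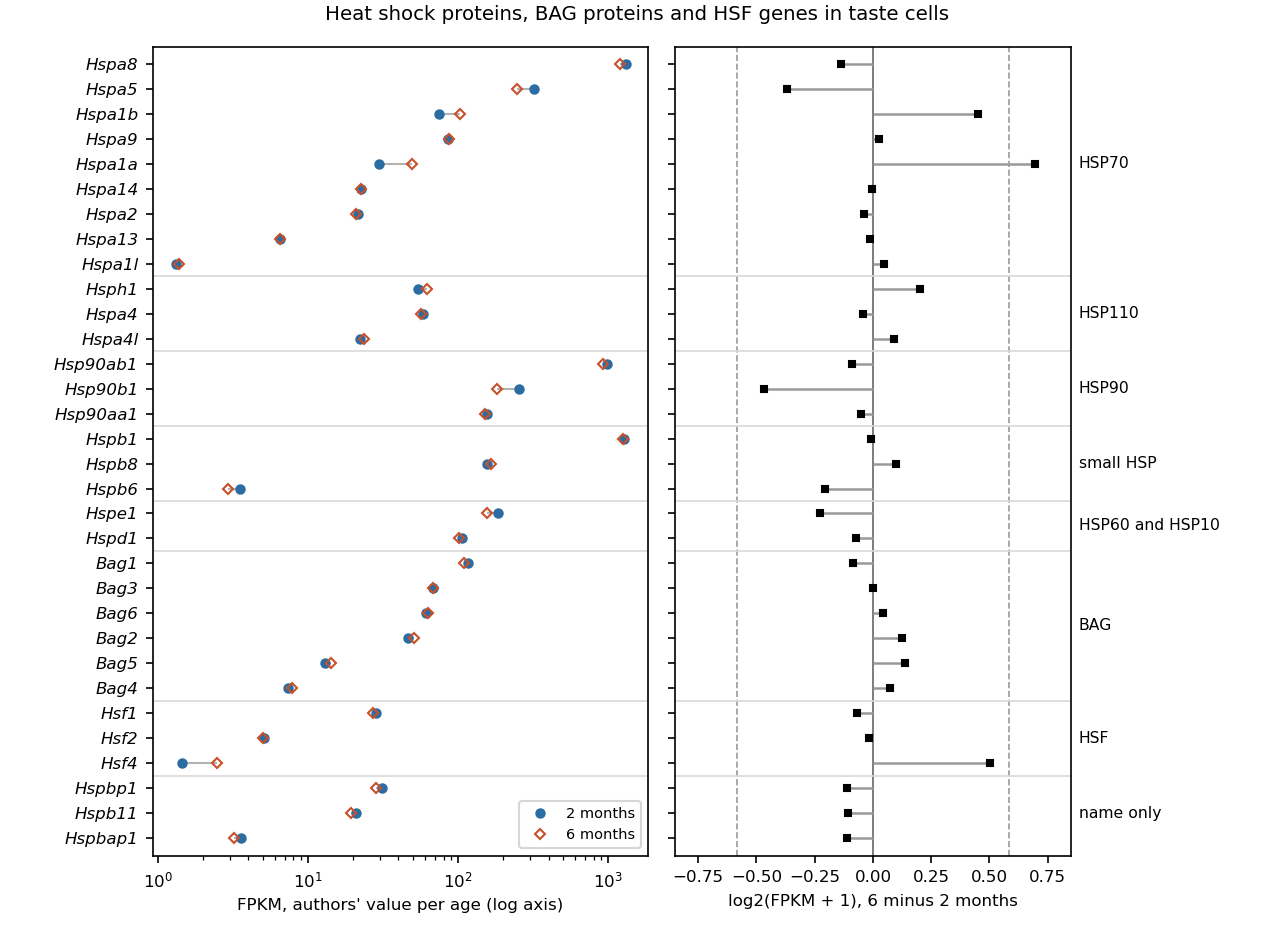
Levels and differences of the heat shock proteins other than J proteins, of the BAG proteins and of the heat shock factors, for expressed members ordered by level within each role group. The left panel plots the authors' FPKM per age on a log axis (filled circles 2 months, open diamonds 6 months), and the right panel plots log2(FPKM + 1) at 6 months minus that at 2 months, with dashed lines at 1.5-fold. Hspa1a, at 0.70, is the only point past a dashed line, and Hsp90b1, at -0.47, lies farthest below 0.

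Among the HSP70 genes, Hspa8 supplied most of the level, and Hspa1a, Hspa1b and Hspa5 had the largest differences. Hspa8, which folds new proteins and strips clathrin from vesicles, had 1303 FPKM at 2 months against 1186 FPKM at 6 months, a log2 difference of -0.14. Hspa5 (BiP), the HSP70 of the ER lumen, had 318 and 246 FPKM, a log2 difference of -0.37. Hspa9, the HSP70 of the mitochondrial matrix, had 85.3 and 87.0 FPKM. The stress-inducible genes were well below Hspa8 in level and above 0 in difference. Hspa1b had 74.4 FPKM at 2 months against 102 FPKM at 6 months, a log2 difference of 0.45. Hspa1a had 29.8 FPKM at 2 months against 49.0 FPKM at 6 months, a log2 difference of 0.70. On this scale it was the largest of any member in either direction. With 0.1 FPKM added in place of 1, Hsf4 stood at 0.73 and Hspa1a at 0.71. Hspa14, Hspa2, Hspa13 and Hspa1l had between 1.31 and 22.5 FPKM, and their log2 differences lay between -0.04 and 0.05. Over the 9 expressed HSP70 genes, 4 were above 0 as deposited and 7 after upper quartile scaling. Their median log2 difference was -0.0035 as deposited and 0.04 after this scaling.

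Hspa1a and Hspa1b are near-identical neighbours, and their reads can be shared between them. In GENCODE annotation of GRCm38, Hspa1a lies at chr17:34969190-34972156 and Hspa1b at chr17:34956436-34959238, both on the minus strand and each with a single exon. Of all 50-base words in the transcripts of Hspa1a, 58.8% also occur in Hspa1b, and 62.3% of those of Hspa1b occur in Hspa1a. Taken as 1 gene, the pair had 104 FPKM at 2 months against 151 FPKM at 6 months, a log2 difference of 0.53, which is short of 1.5-fold. This sum was 8.0% of the level of Hspa8 at 2 months and 12.7% at 6 months. Hspa1a supplied 28.6% of the sum at 2 months and 32.4% at 6 months. Hspa1l, an HSP70 gene of the same cluster that is known from testis, starts upstream of Hspa1a on the other strand and had 1.31 and 1.39 FPKM.

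The promoters of the pair are also near-identical. The RefSeq promoter windows of both genes (300 bases, from 250 before to 50 after the gene start, GRCm38.p6) were identical at 296 positions, or 98.7%. Below are the bases from -120 to -61, at chr17:34972217-34972276 for Hspa1a and chr17:34959299-34959358 for Hspa1b, both on the minus strand and identical at 60 of 60 positions. They are shown because they hold a match to the shortened heat shock element in both genes. This is 2 inverted units, with no mismatch, of the letters that heat shock factors bind, which the capitals mark. A further gaa lies in step with these units in the bases before them, gaaactgctg, with tgc where a unit would have ttc. Units with a mismatch were not searched for, so the element of both genes may be longer than marked.
Hspa1a: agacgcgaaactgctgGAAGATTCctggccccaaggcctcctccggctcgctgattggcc
Hspa1b: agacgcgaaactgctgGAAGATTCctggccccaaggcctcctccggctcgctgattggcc

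Muscle genes lay on the same side as the inducible HSP70 genes, and immediate early genes on the opposite one. Of 16 skeletal muscle markers, 9 were expressed and 9 of those were higher at 6 months. By 1.5-fold 5 were higher (Tnnc2, Mb, Acta1, Tnnt3 and Ckm), against 1.05% of all expressed genes. These 5 had low levels, between 1.16 and 5.57 FPKM, while the more abundant Tnni2 and Eno3 had log2 differences of 0.08 and 0.02. The summed level of the muscle list was 33.8 FPKM at 2 months against 48.7 FPKM at 6 months, its most abundant gene was Tnni2 with 11.2 and 11.9 FPKM, and none was listed at 0. Of 28 immediate early genes, which cells switch on within minutes of a stimulus or of handling, 25 were expressed, and 22 of these were lower at 6 months. By 1.5-fold 9 were lower (Fos, Egr1, Fosb, Atf3, Jun, Zfp36, Cyr61, Dusp1 and Ier3), against 1.72% of all expressed genes. Their summed level was 1706 FPKM at 2 months against 1162 FPKM at 6 months, with Klf4 the most abundant at 249 and 214 FPKM. The part of either list in the differences of Hspa1a and Hspa1b was not tested.

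The HSP110 proteins, large relatives of HSP70 that release its nucleotide, were at middle levels. Hsph1, the inducible one, had 54.0 FPKM at 2 months against 62.2 FPKM at 6 months, a log2 difference of 0.20. Hspa4 had 58.0 and 56.3 FPKM, a log2 difference of -0.04. Hspa4l had 22.0 and 23.5 FPKM, a log2 difference of 0.09, which was also the median of the 3 genes.

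Of the HSP90 genes chosen by symbol, 3 of 3 were lower at 6 months, with the ER form farthest below 0, while Trap1, the mitochondrial HSP90, which the symbol rule does not take, had 34.5 and 35.7 FPKM, a log2 difference of 0.05. Hsp90ab1, the constitutive cytosolic form, had 975 FPKM at 2 months against 916 FPKM at 6 months, a log2 difference of -0.09. Hsp90aa1, the inducible cytosolic form, had 156 and 151 FPKM, a log2 difference of -0.05. Hsp90b1 (GRP94), which folds Toll-like receptors, integrins and secreted proteins in the ER, had 253 FPKM at 2 months against 183 FPKM at 6 months. Its log2 difference of -0.47 was the lowest of all members, and its FPKM at 6 months was 0.721 of that at 2 months.

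Among the small heat shock proteins, which keep unfolding proteins from clumping without the use of ATP, the level was nearly all in a pair of genes. Hspb1 (HSP25) had 1266 FPKM at 2 months against 1260.0 FPKM at 6 months, a log2 difference of -0.01 for the most abundant member by mean level. Hspb8, which works with Bag3 in the removal of damaged proteins, had 155 and 166 FPKM, a log2 difference of 0.10. Hspb6 had 3.51 and 2.92 FPKM, a log2 difference of -0.20. The median of these 3 genes was -0.01 as deposited and 0.04 after upper quartile scaling. The muscle forms Hspb2, Hspb3 and Hspb7 reached at most 0.272, 0.130 and 0.252 FPKM, and Hspb9, known from testis, had 0.394 and 0.420 FPKM. Of 3 small heat shock proteins without an Hsp symbol, Cryab (alpha B crystallin) had 34.8 FPKM at 2 months against 19.7 FPKM at 6 months, a log2 difference of -0.79, while Cryaa had at most 0.30 FPKM and Odf1 was listed at 0 at both ages. Cryab shares exon bases with Hspb2, at chr9:50751078-50752354, which had 0.272 and 0.0910 FPKM.

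The mitochondrial chaperonin genes Hspd1 (HSP60) and Hspe1 (HSP10), whose products form a folding chamber and its lid, were both lower at 6 months. Hspe1 had 183 FPKM at 2 months against 156 FPKM at 6 months, a log2 difference of -0.23. Hspd1 had 106 and 101 FPKM, a log2 difference of -0.07. The genes stand head to head on chromosome 1, Hspd1 on the minus strand at chr1:55077835-55088243 and Hspe1 on the plus strand at chr1:55088132-55091307, and their first exons overlap. Reads from the overlap cannot be told apart without strand.

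Mitochondrial members had a median a little below 0. Of 8 such members (Hspa9, Hspd1, Hspe1, Dnaja3, Dnajc11, Dnajc15, Dnajc19 and Dnajc30, grouped after their values were seen), 6 were lower at 6 months and 5 after upper quartile scaling, where all expressed genes had 53.7% and 42.3% below 0, with a median log2 difference of -0.08 as deposited and -0.04 after this scaling. Their summed level was 514 FPKM at 2 months against 476 FPKM at 6 months. Outside the members, 10 genes of mitochondrial protein import, folding and proteolysis had a median log2 difference of -0.04 and of 0.0013 after upper quartile scaling, none past 1.5-fold, with the protease Afg3l2 the most abundant at 31.9 and 31.2 FPKM.

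The J proteins made up 45 of the members, and 39 of them were expressed. As a family they stood at middle levels, and none was past 1.5-fold. In class A, whose genes keep the layout of bacterial DnaJ, Dnaja2 had 82.6 FPKM at 2 months against 82.2 FPKM at 6 months. Dnaja1, an inducible partner of cytosolic HSP70, had 38.7 and 40.5 FPKM, a log2 difference of 0.06. Dnaja3, which works in mitochondria, had 29.2 and 29.0 FPKM, and Dnaja4 had 24.2 and 26.6 FPKM. The 4 genes had a median log2 difference of 0.03.

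Class B held the J proteins with the largest differences, in both directions. Dnajb6, which keeps polyglutamine proteins from clumping, had 88.6 FPKM at 2 months against 79.1 FPKM at 6 months, a log2 difference of -0.16. Dnajb1 (HSP40), the main inducible J protein, had 72.2 FPKM at 2 months against 88.5 FPKM at 6 months, a log2 difference of 0.29. Dnajb4, a close relative of Dnajb1 at chr3:152178511-152210302, had 12.7 and 17.2 FPKM, a log2 difference of 0.41. Dnajb11, which serves Hspa5 in the ER, had 60.5 FPKM at 2 months against 45.9 FPKM at 6 months, a log2 difference of -0.39. Dnajb2 and Dnajb12 had log2 differences of 0.04 and 0.03, and Dnajb9, another ER form, had 20.7 and 22.1 FPKM. Dnajb13, known from cilia and sperm, had 1.05 and 1.49 FPKM, a log2 difference of 0.28, and its exons overlap those of Ucp2. Over the 11 expressed class B genes, 7 were above 0 and the median log2 difference was 0.04.

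Class C, which joins the J domain to many other functions, was the largest class. Of its 28 genes, 24 were expressed, and their log2 differences lay between -0.22 and 0.14. Dnajc7, which links HSP70 and HSP90, had 67.5 FPKM at 2 months against 63.8 FPKM at 6 months, a log2 difference of -0.08. Dnajc8, a spliceosome protein, had 59.8 and 54.7 FPKM, a log2 difference of -0.13. Dnajc15, of the mitochondrial inner membrane, had 37.0 and 31.6 FPKM, and its log2 difference of -0.22 was the lowest of the class. Dnajc13, an endosomal protein, had 7.98 and 8.91 FPKM, and its log2 difference of 0.14 was the highest. Dnajc5 (cysteine string protein), which guards the vesicle fusion machinery, had 30.5 and 32.2 FPKM, and Dnajc6 (auxilin), which brings Hspa8 to clathrin coats, had 5.91 and 6.38 FPKM. As deposited, 10 genes of the class were above 0 and 14 below, with a median log2 difference of -0.03, and after upper quartile scaling 12 were above and 12 below, with a median of 0.0065.

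**Figure D2:**
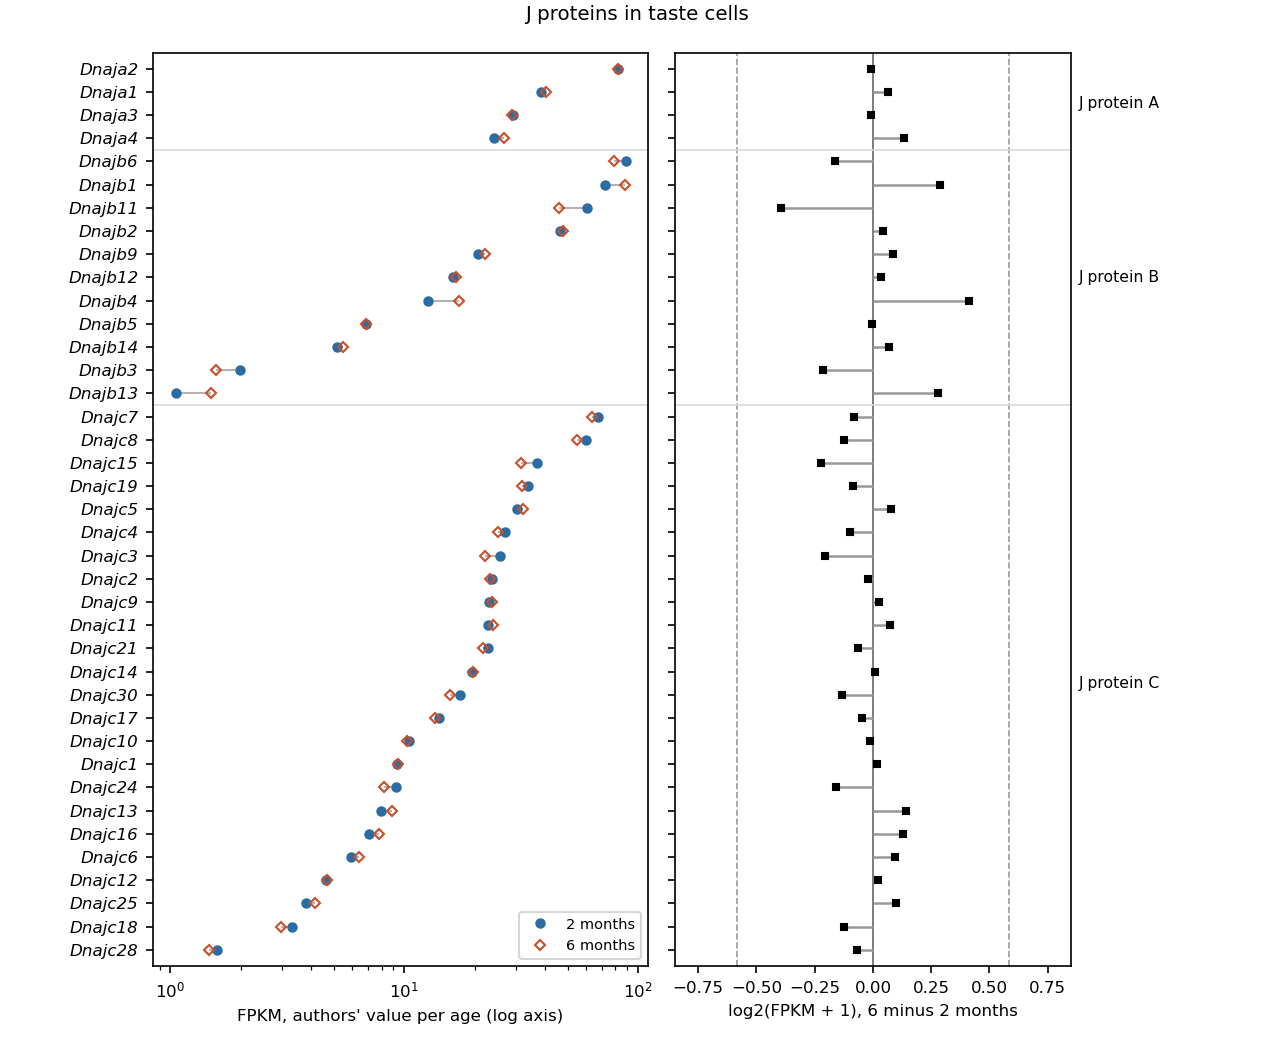
Levels and differences of the 39 expressed J proteins, by class and ordered by level within each class. The left panel plots the authors' FPKM per age on a log axis (filled circles 2 months, open diamonds 6 months), and the right panel plots log2(FPKM + 1) at 6 months minus that at 2 months, with dashed lines at 1.5-fold. No J protein passes a dashed line, and Dnajb4 at 0.41 and Dnajb11 at -0.39 lie farthest from 0.

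The BAG proteins, which release nucleotide from HSP70 and steer its clients, were all measured at 7.33 FPKM or more. Bag1, which links HSP70 to the proteasome, had 116 FPKM at 2 months against 109 FPKM at 6 months, a log2 difference of -0.09. Bag3, the inducible one, which directs clients to autophagy, had 67.6 FPKM at both ages. Bag6, which handles tail-anchored membrane proteins, had 61.1 and 62.9 FPKM, a log2 difference of 0.04. Bag2 and Bag5 had log2 differences of 0.12 and 0.14, and Bag4 of 0.07. Of the 6 genes 4 were above 0, with a median log2 difference of 0.06, and 5 were above 0 after upper quartile scaling.

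The heat shock factors stood at low to middle levels. Hsf1, the main factor of the heat shock response, had 28.3 FPKM at 2 months against 26.9 FPKM at 6 months, a log2 difference of -0.07. Hsf2, which can pair with Hsf1, had 5.09 and 5.02 FPKM, a log2 difference of -0.02, which was also the median of the 3 expressed factors and became 0.02 after upper quartile scaling. Hsf4, best known from the lens of the eye, had 1.45 FPKM at 2 months against 2.47 FPKM at 6 months, a log2 difference of 0.50. At so low a level this value leans on the pseudocount, and with 0.1 in place of 1 FPKM it was 0.73, past 1.5-fold. Hsf5 had 0.0466 and 0.0421 FPKM, and Hsf3 had 0.0110 FPKM at 2 months and was listed at 0 at 6 months.

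The symbol rule also took 4 genes that match by symbol and belong to none of these families. Hspbp1, a nucleotide release factor of HSP70, had 30.9 and 28.5 FPKM, and Hspb11, a protein of transport within cilia, had 20.8 and 19.3 FPKM. Hspbap1 had 3.57 and 3.23 FPKM, and Hsf2bp had 0.0890 and 0.0810 FPKM. The log2 difference of each of the first 3 was -0.11.

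The heat-inducible members lay on both sides of 0. Of 11 genes listed for the heat shock response, among them the largely constitutive Hspa8 (Hspa1a, Hspa1b, Hsph1, Dnajb1, Dnaja1, Hspa8, Hsp90aa1, Hspb1, Hspd1, Hspe1 and Bag3), 5 were above 0 and 6 below, and after upper quartile scaling 7 were above and 4 below. Above 0 were Hspa1a, Hspa1b, Dnajb1, Hsph1 and Dnaja1, with log2 differences from 0.06 to 0.70, and below 0 were Hspe1, Hspa8, Hspd1, Hsp90aa1, Hspb1 and Bag3, with log2 differences down to -0.23. Their median log2 difference was -0.00051 as deposited and 0.04 after scaling, and their summed level was 3351 FPKM at 2 months against 3264 FPKM at 6 months. Without Hspa8, 5 were above 0 and 5 below as deposited, the median was 0.03 and the sum was 2048 and 2078 FPKM. After upper quartile scaling 3 of these 10 were below 0 and the median was 0.07.

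Among the members of the ER, 3 lumenal chaperones stood below 0 and the others lay nearer to it. A group put together after the values had been seen has 8 genes, Hspa5, Hspa13, Hsp90b1, Dnajb9, Dnajb11, Dnajc1, Dnajc3 and Dnajc10. Of these 6 were lower at 6 months, or 4 after upper quartile scaling, when Hspa13 and Dnajc10 passed to the other side of 0. Their summed level was 704 FPKM at 2 months against 545 FPKM at 6 months, which is 22.6% less, and nearly all of this lay in Hspa5, Hsp90b1 and Dnajb11. The 5 ER members other than these summed to 72.7 FPKM at 2 months against 70.5 FPKM at 6 months, with a median log2 difference of -0.01 as deposited and 0.03 after upper quartile scaling. The other 63 expressed members and the 15 low ones summed to 5789 and 5633 FPKM. Hsp90b1, Hspa5 and Dnajb11, the lumenal chaperones that work together on secreted proteins, were the same 3 genes that were lower by at least 0.32 among all members. Dnajc3 (P58IPK), another J protein of the lumen, had 25.6 and 22.1 FPKM, a log2 difference of -0.20. Dnajc10 (ERdj5), which reduces disulfide bonds, had 10.4 and 10.3 FPKM, and Dnajc1 had 9.32 and 9.44 FPKM. The median log2 difference was -0.11 for the 8 ER members. With 6 further J proteins of the ER membrane (Dnajb12, Dnajb14, Dnajc14, Dnajc16, Dnajc18 and Dnajc25), of which 5 were above 0, the median of the 14 genes was -0.0018 as deposited and 0.04 after upper quartile scaling, so the median depends on which members are counted. For the 63 members outside the group of 8 it was -0.0043, which became 0.04 after upper quartile scaling, when that of the 8 was -0.07.

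Other ER folding and stress genes lay mostly on the side of these 3. Of 24 such genes outside the members, 20 were lower at 6 months and 18 after upper quartile scaling, with a median log2 difference of -0.20. Lower by at least 0.32 were 9, and lower by 1.5-fold was Sdf2l1, a partner of Dnajb11, with 26.9 FPKM at 2 months against 15.7 FPKM at 6 months. The most abundant, the calcium-binding chaperone Calr, had 441 and 331 FPKM, a log2 difference of -0.41. Above 0 were Ddit3, Ern1, Eif2ak3 and Herpud1, with log2 differences of 0.26, 0.21, 0.16 and 0.04. The stress sensors Ern1 and Eif2ak3 and the late stress factor Ddit3 are among them, while the stress sensor Atf6 lay below 0, at -0.15. Other stress genes of the list, Atf4, Trib3 and Ppp1r15a, also lay below 0, at -0.03, -0.26 and -0.55. Xbp1, the transcription factor spliced by Ern1 and named here after its value was seen, had 191 and 163 FPKM, a log2 difference of -0.22. The summed level of the 24 genes was 2059 FPKM at 2 months against 1733 FPKM at 6 months.

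Genes of secretory and cornified cells were also lower at 6 months. Of 10 salivary gland markers, 6 were expressed and 5 of these were lower, with a summed level of 157 FPKM at 2 months against 72.3 FPKM at 6 months. Lipf, the most abundant, had 83.7 and 14.7 FPKM, and without it the list summed to 72.8 and 57.6 FPKM. Dcpp2 was higher by 1.5-fold, with 1.45 and 3.28 FPKM, and Prol1 was listed at 0 at both ages. Of 16 cornified cell markers 15 were analysed, 14 of them expressed, and 12 of the 14 were lower, 8 by 1.5-fold (Lce1a1, Lce1b, Lce1c, Lce1d, Hrnr, Krt10, Lor and Ivl), with a summed level of 13226 FPKM at 2 months against 10802 FPKM at 6 months. The part of either list in the lower values of Hsp90b1, Hspa5 and Dnajb11 was not tested.

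**Figure D3:**
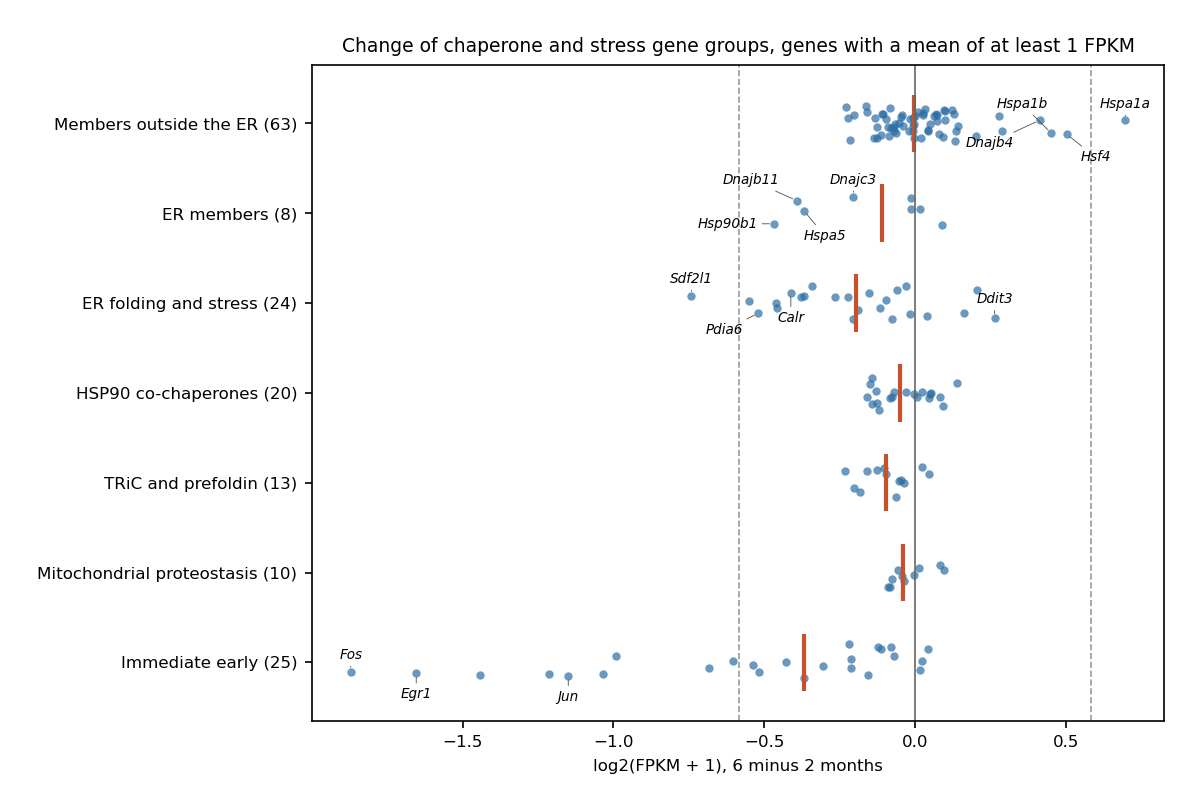
Differences of log2(FPKM + 1), 6 minus 2 months, for the ER members, the other members and 5 lists of related genes, each point an expressed gene (number in brackets) and each vertical bar the group's median. Dashed lines mark 1.5-fold, and vertical scatter within a row has no meaning. The 8 ER members, grouped after their values were seen, have a median of -0.11 that rests on Hsp90b1, Dnajb11 and Hspa5 (-0.01 without them), the ER folding and stress list has -0.20, and the other members have -0.0043 as deposited and 0.04 after upper quartile scaling.

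The partners of HSP90 and the cytosolic chaperonin showed small differences. All 20 genes of the HSP90 co-chaperone list, which also holds Trap1, were expressed, none was past 1.5-fold, and 12 were lower as deposited and 10 after upper quartile scaling, with medians of -0.05 and -0.0089. The most abundant was the immunophilin Fkbp4 with 130 FPKM at 2 months against 123 FPKM at 6 months. Of the 13 subunits analysed of the TRiC chaperonin and of prefoldin, which together fold actin and tubulin, 11 were lower, or 10 after upper quartile scaling, none by 1.5-fold, with a median log2 difference of -0.10. The most abundant was Pfdn5 with 253 and 223 FPKM.

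Several abundant members share sequence with other annotated genes, which can blur their FPKM. Of the 50-base words in their transcripts, 48.8% for Hspb1, 47.5% for Hsp90aa1, 39.7% for Hspd1, 38.6% for Hspa8, 18.4% for Hspe1, 17.7% for Dnajb6 and 11.9% for Dnaja1 also occur in another gene, among them Hsp25-ps1 for Hspb1 and Gm15459 for Hspa8. For Hsp90b1 the share was 2.96% and for Dnajb1 0.380%, while no word of Hspa5, Hsph1, Dnajb4, Dnajb11 or Hsf4 occurs in an annotated transcript of another gene. The rest of the genome was not searched. Hsp90b1, at chr10:86690209-86705509 on the minus strand with up to 18 exons in a transcript, overlaps exons of 1810014B01Rik, Gm15344 and Gm25745. Hspa5 lies at chr2:34771970-34777547 with up to 9 exons and Dnajb11 at chr16:22857845-22879634 with up to 11, both on the plus strand and without an overlapping exon of another gene. Hsf4 lies at chr8:105269801-105275845 on the plus strand with up to 13 exons.

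The promoters of the members were searched for heat shock elements, the letters that heat shock factors bind. A RefSeq promoter window was matched by symbol for 69 of the 86 members, among 27025 genes with one. The full element was taken as 3 inverted units, GAANNTTC followed by NNGAA or TTCNNGAA followed by NNTTC, with no mismatch and on both strands. It was found in 4 members, Hspd1, Hspe1, Hsph1 and Dnajb6, or 5.80%, against 0.662% of all genes. The shortened element of 2 units (GAANNTTC or TTCNNGAA), which every full element contains, was found in 18 members, or 26.1%, against 17.0% of all genes. TATAAA was found in 4 members (5.80%, all genes 15.7%) and CCAAT in 28 (40.6%, all genes 41.1%). Of the members with a full element, Hspd1, Hspe1 and Dnajb6 were lower at 6 months and Hsph1 was higher. Of the 14 expressed members with the shortened element, 7 were above 0 and 7 below as deposited, and 4 were below after upper quartile scaling. The near-identical windows of Hspa1a and Hspa1b are both counted among these 14. Of the 1283 expressed genes with the shortened element 56.7% were lower as deposited, against 53.8% of all expressed genes with a window. A match says only that the letters are present. A gene without one can hold the element outside its window, or within it with a mismatch, which the search did not allow.

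The full elements of 3 members are shown, because heat shock factors are known to bind such letters. The full element of Hsph1, at chr5:149636288-149636300 on the minus strand, is not printed. Hspd1 and Hspe1 share theirs, since their windows overlap, and it is printed on the Hspe1 strand at chr1:55088055-55088084 (-93 to -64 from the Hspe1 start, within an annotated exon of Hspd1). That of Dnajb6 lies at chr5:29735843-29735872 on the plus strand, from -55 to -26, within annotated exons of longer Dnajb6 transcripts and of Gm5129. Capitals mark the units with the bases between them.
Hspe1: tccgTTCTAGAACCTTCCGGAAggccccgc
Dnajb6: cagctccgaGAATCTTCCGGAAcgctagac

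A further element, the ER stress element through which the unfolded protein response acts, was found in some of the ER members. It was searched after the values had been seen, as CCAAT and CCACG with 9 bases between them, on both strands, and it contains the CCAAT letters counted above. The element was found in Hsp90b1, Hspa5 and Dnajc3, which is 3 of the 69 members (4.35%), against 37 of all genes (0.137%). Among the other ER folding and stress genes it was found in 5 of the 20 with a window, namely Calr, Canx, Creld2, Pdia6 and Syvn1. In all, 13 expressed genes held it, and 8 of them are the ER members and ER list genes just named, whose lower values had prompted the search, so their direction adds nothing to that observation. The other 5 had a median log2 difference of -0.01 as deposited and 0.03 after upper quartile scaling, and they were Alg12 at -0.15, Adcy3 at 0.40 and Hnrnpa3, Pan2 and Spats2l between -0.01 and -0.00053. Among all 9250 expressed genes with a window the median was -0.01.

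The ER stress elements of the 3 members that hold one are printed because the element was searched for the ER members. Dnajb11, one of the 3 lowest members, has CCAAT in its window but no such element, and neither do the windows of the members other than these 3. Hsp90b1 had 2 matches in opposite orientation between -220 and -81, at chr10:86705525-86705664 on the minus strand. Hspa5 had 1 match, shown from -70 to -41 at chr2:34772020-34772049 on the plus strand, within an annotated exon. Dnajc3 had 1 match, shown from -120 to -71 at chr14:118937812-118937861 on the plus strand. Capitals mark CCAAT and CCACG, or ATTGG and CGTGG where the element is read on the other strand.
Hsp90b1: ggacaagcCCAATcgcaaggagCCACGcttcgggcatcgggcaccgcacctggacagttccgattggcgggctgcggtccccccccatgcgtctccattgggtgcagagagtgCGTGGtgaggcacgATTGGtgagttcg
Hspa5: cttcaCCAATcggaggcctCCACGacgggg
Dnajc3: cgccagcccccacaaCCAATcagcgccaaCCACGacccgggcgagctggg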

How the data were processed

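Taste cell RNA of 3 pools per age was measured by poly(A) RNA sequencing. The authors aligned reads to GRCm38/mm10 with TopHat2 2.0.7 and the iGenomes RefSeq annotation, quantified genes with Cufflinks 2.1.1 and compared the ages with Cuffdiff, and the deposited values are FPKM, 1 per gene and age over the 3 libraries of that age. Which library normalization was set is not given in the sources used here. FPKM is per length, so levels of different genes were compared, but it carries no depth. Column letters B and S were tied to 6 and 2 months through the titles of the samples. The deposited p-value column holds the authors' own comparison and was not used. No value per library was used, so limma, planned for such values, was not run, and no replicate was left out.

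Differences of log2(FPKM + 1) were computed in Python 3.11.15 with numpy 2.4.6, pandas 2.3.3 and scipy 1.17.1, over genes whose mean FPKM was 1 or more, and plotted with matplotlib 3.10.9. The code was tested on simulated data. Named in full are the 3 most abundant members of each role group, members that differ by at least 0.32, the heat-inducible members and the Hsf genes, and of each other list the most abundant gene and those past 1.5-fold. Members and lists were chosen with earlier results of these data known. Alternatives were the pseudocount, the scaling, the filter, the size of change, the members counted and the length of the heat shock element.

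Positions and 50-base words came from GENCODE annotation of GRCm38 and promoters from RefSeq (GRCm38.p6). Promoters were matched by symbol. Protein identity was not analysed here.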

Additional observations from a re-analysis of the deposited data

How the results depend on the processing

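No paired analysis was possible because each gene has 1 value per age, and leaving out a library was not run for the same reason. The number of members higher by the size rule was 1 as reported, 2 with a pseudocount of 0.1 FPKM (Hspa1a and Hsf4), 0 at 2-fold, 0 with Hspa1a and Hspa1b summed and counted as 1 gene, and 4 at a log2 difference of 0.32, or 3 there with the pair summed. The number lower was 0 as reported and 3 at 0.32. With 2 units in place of 3, 18 members and not 4 held a heat shock element. The other 13 counts were as reported, namely both counts under both scalings, no filter, a minimum mean of 5 FPKM and without the genes matched by name only, and the count lower with a pseudocount of 0.1 FPKM, at 2-fold and with the pair summed. The 84 medians of role and ER groups under the alternatives moved by at most 0.05 on the log2 scale, the most for the small heat shock proteins. Since many medians lie that near 0, upper quartile scaling, which multiplies the 6 month values by 1.03, turned those of all members, the HSP70 genes, the small heat shock proteins, the class C J proteins and the heat shock factors from below to above 0. The median of the 8 ER members lay between -0.11 and -0.07 under these alternatives, but was -0.0018 with 6 further J proteins of the ER membrane and -0.01 without Hspa5, Hsp90b1 and Dnajb11, and that of the ER list between -0.20 and -0.16. Under the pseudocount and both scalings the difference of Hspa1a lay between 0.71 and 0.74 and that of Hsp90b1 between -0.47 and -0.43. The ER group and its members, the ER list, the ER element, the counts with the pair summed and the taste markers without keratins were tried after the data had been seen. Depth is unknown, so the error of values near 1 FPKM, such as those of Hsf4, cannot be given.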

Other observations

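Markers of other cell types that a tongue preparation can hold differed in level. The fibroblast, endothelial and ciliated lists were low in sum, while the leukocyte and basal epithelial lists were not. Of 8 fibroblast markers 4 had a mean of at least 1 FPKM, with a summed level of 59.8 FPKM at 2 months against 47.0 FPKM at 6 months, and the most abundant, Dcn, was lower by 1.5-fold with 42.0 and 27.3 FPKM, while the collagen genes Col1a1, Col1a2 and Col3a1 had at most 0.134, 0.121 and 0.144 FPKM. Of 6 endothelial markers 2 passed 1 FPKM, with a summed level of 5.91 and 5.29 FPKM and Vwf the most abundant at 3.94 and 3.34 FPKM. Of 7 leukocyte markers analysed 6 passed 1 FPKM, with a summed level of 414 and 375 FPKM and Lyz2 the most abundant at 293 and 254 FPKM, and Ptprc, carried by all leukocytes, had 1.54 and 1.65 FPKM. Of 6 markers of ciliated cells analysed 2 passed 1 FPKM, with a summed level of 4.78 and 4.50 FPKM and Ccdc39 the most abundant at 2.32 and 2.60 FPKM. The 6 basal epithelial markers all passed 1 FPKM, 3 above and 3 below 0, with a summed level of 4572 and 4537 FPKM.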
